A study of Mus musculus with 4 samples.

Results

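Ccl5, Ccl9, Ccl6, Ccl3, Ccl4, Wfdc17 and Wfdc18 are neighbours on mouse chromosome 11, and their transcripts were counted in single blood stem cells. The 7 genes were chosen by name among 31053 genes in the count tables, with earlier results of the same tables known, so their difference between the sorted populations is described here without a test. The study sorted bone marrow cells positive for Kit and Sca1 and negative for CD48 and lineage markers. Cells with CD150 were taken as long-term hematopoietic stem cells (LT-HSC) and cells without it as short-term hematopoietic stem cells (ST-HSC). Each population was taken from the same 2 male mice aged 14 weeks, which gave 4 libraries. All 4 groups of cells came from the strain named Tie2-bG-Micm x RosaYFP in the labels, so the transgenes were shared by both populations, and the tables show no strain without them. The profiles were used by the study as a map on which clonally traced stem cells could be placed.

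Chemokines are small secreted proteins that guide leukocytes through receptors on the cell surface. Ccl3, Ccl4 and Ccl5 attract lymphocytes and monocytes, and Ccl3 is known in mice as an inhibitor of stem and progenitor cell proliferation. Ccl6 and Ccl9 are chemokines of the mouse that act through Ccr1. Wfdc17 and Wfdc18 encode small secreted proteins with a whey acidic protein domain, the fold of many protease inhibitors. Wfdc17 is known from activated microglia and macrophages of the mouse, and Wfdc18 from the mouse mammary gland.

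The genes lie within 185.571 kb, at chr11:83525778-83711348 of the mouse genome build GRCm38, in the GENCODE vM21 annotation. In map order they are Ccl5 (83525778 to 83530518), Ccl9 (83572919 to 83578636), Ccl6 (83587882 to 83593087) and Ccl3 (83647844 to 83649355) on the minus strand. They are followed by Ccl4 (83662584 to 83664683), Wfdc17 (83703991 to 83706268) and Wfdc18 (83709015 to 83711348) on the plus strand. Ccl9 and Ccl6 have 4 exons and each of the others has 3. Wfdc17 and Wfdc18 are the closest pair, with 2746 bases between them, and 13228 bases separate Ccl3 from Ccl4. The annotated gene E230016K23Rik overlaps Ccl6 on the other strand, and it is not among the genes of the count tables.

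Promoter sequences, from 250 bases before to 50 bases after the RefSeq gene start on GRCm38.p6, were found for 5 of the 7 genes, which were Ccl9, Ccl6, Ccl3, Wfdc17 and Wfdc18. Those of the neighbours Wfdc17 and Wfdc18 are shown first, because this pair had the largest difference of all member pairs in the test of shared cells below. Capitals mark the stretch that a local alignment paired between both promoters. The Wfdc17 sequence is chr11:83703806-83704105 and the Wfdc18 sequence is chr11:83708754-83709053, both on the plus strand.
Wfdc17: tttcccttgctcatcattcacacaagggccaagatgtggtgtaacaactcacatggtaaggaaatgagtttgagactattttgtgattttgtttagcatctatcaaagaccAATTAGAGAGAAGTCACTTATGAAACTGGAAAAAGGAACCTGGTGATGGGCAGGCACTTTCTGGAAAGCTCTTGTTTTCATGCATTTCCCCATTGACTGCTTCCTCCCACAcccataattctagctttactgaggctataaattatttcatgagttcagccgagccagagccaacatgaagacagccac
Wfdc18: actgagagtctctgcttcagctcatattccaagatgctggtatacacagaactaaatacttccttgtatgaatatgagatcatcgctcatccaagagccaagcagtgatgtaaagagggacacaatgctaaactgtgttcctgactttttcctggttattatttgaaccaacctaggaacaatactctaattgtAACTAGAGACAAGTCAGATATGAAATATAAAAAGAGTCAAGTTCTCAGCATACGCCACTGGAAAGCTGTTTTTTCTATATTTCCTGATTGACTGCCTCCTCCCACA
The aligned stretch held 82 identical bases in 112 columns (73.2%).

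The promoters of the neighbours Ccl9 and Ccl6 are shown for the same comparison, because these genes had unlike counts in the sorted cells. The Ccl9 sequence is chr11:83578587-83578886 and the Ccl6 sequence is chr11:83593038-83593337, both on the minus strand and printed 5′ to 3′.
Ccl9: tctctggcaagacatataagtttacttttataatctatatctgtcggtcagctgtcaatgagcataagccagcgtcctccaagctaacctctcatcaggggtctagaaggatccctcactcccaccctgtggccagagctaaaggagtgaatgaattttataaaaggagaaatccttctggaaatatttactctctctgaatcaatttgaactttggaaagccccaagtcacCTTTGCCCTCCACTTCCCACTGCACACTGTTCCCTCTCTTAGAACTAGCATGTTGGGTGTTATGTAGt
Ccl6: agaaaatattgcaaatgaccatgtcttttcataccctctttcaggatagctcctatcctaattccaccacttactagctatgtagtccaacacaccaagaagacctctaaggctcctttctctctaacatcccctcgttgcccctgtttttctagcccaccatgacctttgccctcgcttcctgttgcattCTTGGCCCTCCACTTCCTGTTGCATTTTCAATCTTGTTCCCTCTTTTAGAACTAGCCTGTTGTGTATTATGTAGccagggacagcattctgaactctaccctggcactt
Their aligned stretch held 59 identical bases in 74 columns (79.7%). Among the other 8 pairs of the 5 promoters, the best local alignment spanned 9 to 27 columns.

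Motifs were searched on both strands as exact letters. The TATA box letters TATAAA occurred 3 times in the Ccl9 promoter and once each in those of Wfdc17 and Wfdc18, and 13.6% of 32851 RefSeq promoters of this length held them. The AP-1 letters TGANTCA occurred once, in the Ccl9 promoter, against 7.8% of all promoters. The NF-kB motif also occurred once in the Ccl9 promoter, but 50.8% of all promoters held it. The PU.1 letters GAGGAAG occurred once, in the Wfdc17 promoter, against 13.6% of all promoters, and the C/EBP letters TTGCNNNAA (9.6% of all promoters) were in none of the 5. A match describes the letters in this window and is not a measured site.

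One library, mouse 1 LT-HSC, differed from the rest, so every LT-HSC level below rests mainly on mouse 2. Barcodes were kept as cells with at least 1000 genes, at least 2000 unique molecular identifiers (UMIs, which count each captured RNA molecule once) and at most 10% mitochondrial UMIs. This left 22 of 39553 barcodes in mouse 1 LT-HSC, 1217 of 1288 in mouse 2 LT-HSC, 2633 of 2793 in mouse 1 ST-HSC and 1707 of 1784 in mouse 2 ST-HSC. The kept cells held 115305, 13249904, 27870823 and 13566531 UMIs in that order. Slamf1, which encodes CD150, lay at 34.7 and 21.9 counts per 1e6 UMIs (CPM) in mouse 1 and mouse 2 LT-HSC, against 0.825 and 1.40 CPM in ST-HSC, and Kit and Ly6a, which encode Kit and Sca1, lay between 223 and 321 CPM in all 4 libraries. Cd48 lay at 0 and 2.19 CPM in LT-HSC, against 12.95 and 18.0 CPM in ST-HSC. Of the kept cells, 39 fell in a cluster led by neutrophil genes and 41 in one led by macrophage genes, types the sorting gates should not hold. Both are called clusters of other cell types below. Whether the macrophage-led cells are another type or stem cells with such RNA was not tested, and a coarser clustering (resolution 0.5) named no such cluster. Kept barcodes shared by 2 libraries numbered 1 between mouse 2 LT-HSC and mouse 2 ST-HSC and 1 between the ST-HSC libraries.

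Of Ccl3, Ccl4 and Ccl5, Ccl4 was found in nearly 1 of every 2 cells in every library, while Ccl3 and Ccl5 lay higher in ST-HSC. Ccl4 lay at 147 CPM in mouse 1 LT-HSC and 75.7 CPM in mouse 2 LT-HSC, against 88.3 CPM in mouse 1 ST-HSC and 110 CPM in mouse 2 ST-HSC. The value of mouse 1 LT-HSC came from 17 UMIs. The populations therefore overlapped in Ccl4, with a log2 difference of -0.27 (SE 0.19) between LT-HSC and ST-HSC that was 0.46 without mouse 2 LT-HSC. At least 1 Ccl4 UMI was found in 45.9% (95% exact binomial interval 43.0 to 48.7%) of 1217 cells in mouse 2 LT-HSC, against 48.6% (46.7 to 50.5%) of 2633 cells and 46.9% (44.5 to 49.3%) of 1707 cells in mouse 1 and mouse 2 ST-HSC. In mouse 1 LT-HSC, 10 of 22 cells held Ccl4. Intervals cover counting error only.

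Ccl3 lay at 0 CPM in mouse 1 LT-HSC, below a floor of 26.0 CPM that 3 UMIs would give there, and at 3.62 CPM in mouse 2 LT-HSC. It lay at 38.4 CPM in mouse 1 ST-HSC and 48.1 CPM in mouse 2 ST-HSC. The log2 difference was -3.59 (SE 0.29), and within mouse 2 ST-HSC lay 13.3 times above LT-HSC. Ccl3 was thus low in LT-HSC although Ccl4, its neighbour, was not. A Ccl3 UMI was found in 3.29% of cells in mouse 2 LT-HSC, against 22.5% and 22.6% of cells in mouse 1 and mouse 2 ST-HSC.

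Ccl5 lay at 8.67 CPM in mouse 1 LT-HSC, which was 1 UMI, and at 1.89 CPM in mouse 2 LT-HSC, against 16.5 and 35.7 CPM in mouse 1 and mouse 2 ST-HSC. The log2 difference was -3.70 (SE 0.33), and it was -1.68 without mouse 2 LT-HSC and -3.07 without mouse 2 ST-HSC. Few cells carried it, which were 0.740% of cells in mouse 2 LT-HSC and 3.46% and 2.05% in mouse 1 and mouse 2 ST-HSC. Its level in ST-HSC therefore rested on a small number of cells with many molecules, described below.

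Of the Ccr1 ligands, Ccl9 was present in under 10% of the cells and Ccl6 in almost none. Ccl9 lay at 0 CPM in mouse 1 LT-HSC and 2.19 CPM in mouse 2 LT-HSC, against 12.02 and 16.5 CPM in ST-HSC, a log2 difference of -2.70 (SE 0.35). Cells with a Ccl9 UMI made up 2.22% of mouse 2 LT-HSC, and 9.08% and 9.37% of mouse 1 and mouse 2 ST-HSC. Ccl6 lay at 0 and 1.43 CPM in LT-HSC, against 2.69 and 9.58 CPM in ST-HSC, a log2 difference of -2.04 (SE 0.46) that was -0.91 without mouse 2 ST-HSC and -2.76 without mouse 1 ST-HSC. With the mouse as a block it was -2.75, and with all barcodes of mouse 1 LT-HSC -2.68. Its shares of cells were 0.575% in mouse 2 LT-HSC, and 1.03% and 1.58% in ST-HSC.

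The whey acidic protein genes parted the populations most among the 7. Wfdc17 lay at 8.67 CPM (1 UMI) in mouse 1 LT-HSC and 7.32 CPM in mouse 2 LT-HSC, against 144 CPM in mouse 1 ST-HSC and 200.5 CPM in mouse 2 ST-HSC. The log2 difference was -4.55 (SE 0.26), and within mouse 2 ST-HSC lay 27.4 times above LT-HSC. A Wfdc17 UMI was found in 5.75% (4.51 to 7.21%) of cells in mouse 2 LT-HSC, against 36.7% (34.9 to 38.6%) and 36.7% (34.4 to 39.1%) in mouse 1 and mouse 2 ST-HSC. Wfdc17 was the most abundant of the 7 transcripts in ST-HSC, while Ccl4 was the most abundant in LT-HSC; these 3′ counts do not scale with transcript length.

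Wfdc18 lay at 0 CPM in mouse 1 LT-HSC and at 0.528 CPM in mouse 2 LT-HSC, where 4 cells held 7 UMIs. It lay at 24.1 and 39.6 CPM in mouse 1 and mouse 2 ST-HSC, a log2 difference of -5.89 (SE 0.40), or -4.32 with all barcodes of mouse 1 LT-HSC. A Wfdc18 UMI was found in 0.329% of cells in mouse 2 LT-HSC, against 12.2% and 12.9% in ST-HSC. For the 4 genes without a UMI in the 22 cells of mouse 1 LT-HSC, which were Ccl3, Ccl6, Ccl9 and Wfdc18, a count of 0 allows a share of cells with a UMI of up to 13.6% (3 of 22 cells; the exact binomial interval runs to 15.4%). This limits cells with a UMI, not cells that express the gene. Without mouse 2 LT-HSC these 4 genes have no UMI left in LT-HSC, and no fold is given.

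In order of level, mouse 2 LT-HSC ran Ccl4, Wfdc17, Ccl3, Ccl9, Ccl5, Ccl6, Wfdc18, and the 2 lowest of these rested on 19 UMIs and 7 UMIs. Both ST-HSC libraries ran Wfdc17, Ccl4, Ccl3, Wfdc18, Ccl5, Ccl9, Ccl6, although the range of Wfdc18 over these libraries overlapped those of Ccl3 and Ccl5. The library of mouse 2 ST-HSC lay above that of mouse 1 for all 7 genes, by 1.25 times for Ccl3 and Ccl4, 1.37 for Ccl9, 1.39 for Wfdc17, 1.64 for Wfdc18, 2.16 for Ccl5 and 3.56 for Ccl6. For 6 of the 7 genes, all but Ccl4, mouse 2 LT-HSC lay below both ST-HSC libraries, and for Ccl6 alone by less than the step between the ST-HSC libraries. The shallow library of mouse 1 LT-HSC was at or near 0 for the same 6 genes, but its floor of 26.0 CPM lies above both ST-HSC levels of Ccl9 and Ccl6 and above the mouse 1 ST-HSC levels of Ccl5 and Wfdc18, so it cannot part the populations for those genes. Over the whole table, 3.6% of the 12656 genes tested were higher and 3.13% were lower in LT-HSC by edgeR at an adjusted p under 0.05, which is given as background for genes chosen on this contrast.

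**Figure D1:**
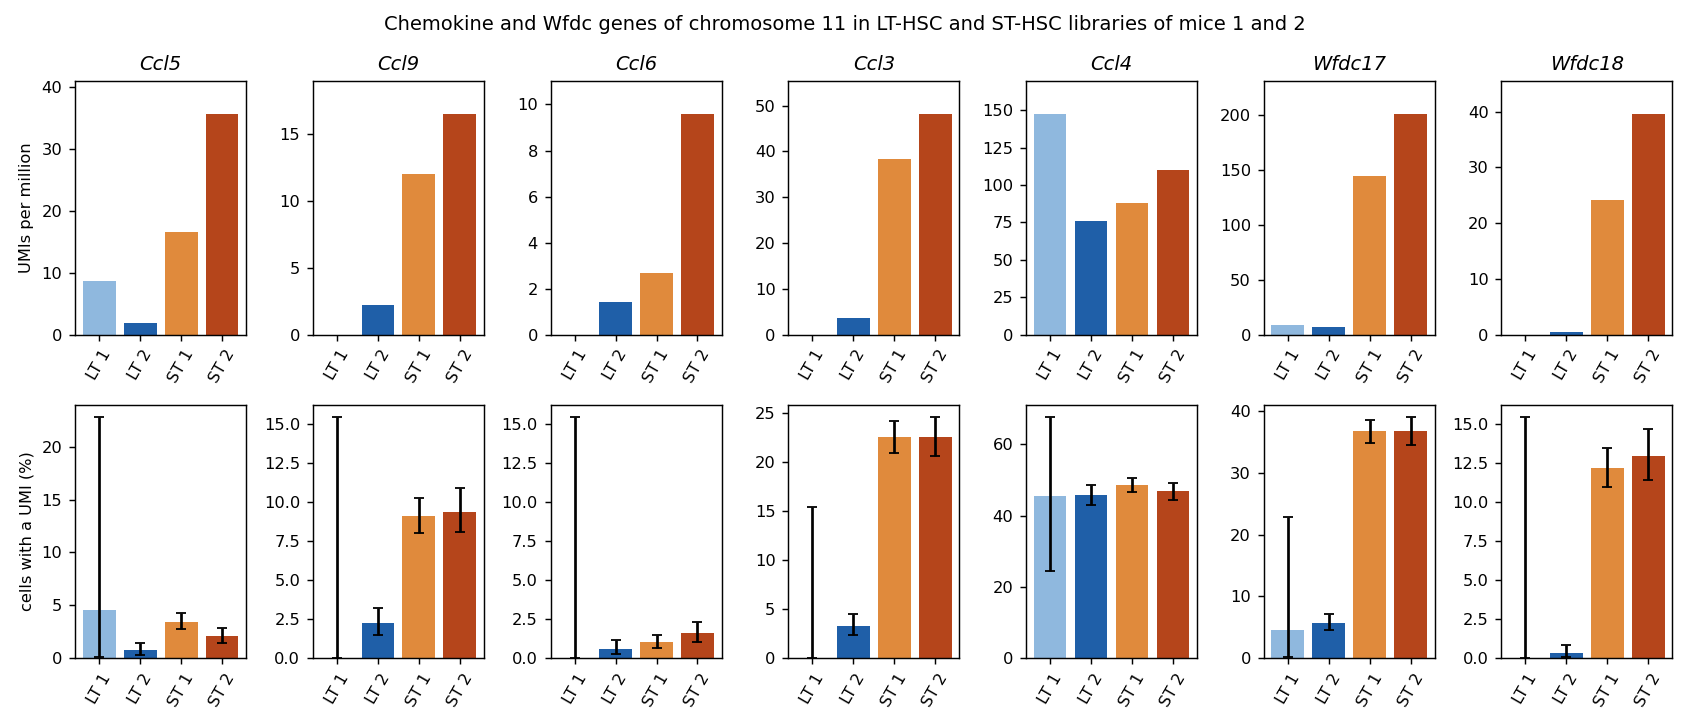
Levels of the 7 genes in each library. The upper panel gives counts per 1e6 UMIs over the kept cells and the lower panel the percent of cells with at least 1 UMI (bars, 95% exact binomial intervals); LT-HSC libraries stand left of ST-HSC libraries. In the lower panel Ccl4 is at similar heights in all 4 libraries. It is at 45.9% of cells in mouse 2 LT-HSC, and at 48.6% and 46.9% in ST-HSC. Wfdc17 is at 5.75% in mouse 2 LT-HSC and 36.7% in both ST-HSC libraries. In the upper panel Ccl4 runs from 75.7 CPM in mouse 2 LT-HSC to 147 CPM in mouse 1 LT-HSC.

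The barcodes of mouse 1 LT-HSC that did not pass as cells gave another reading of that library. Over all its barcodes, it held 84.3 CPM of Ccl4, 9.94 of Wfdc17, 3.39 of Ccl3, 2.73 of Ccl5, 2.36 of Wfdc18, 1.55 of Ccl9 and 0.295 of Ccl6. Ccl4 and Wfdc17 were again the highest, as in mouse 2 LT-HSC, and all 7 genes lay below both ST-HSC libraries, Ccl4 by the smallest step. Most of these barcodes held too few molecules to be called cells, and their median was 285 UMIs.

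Sequencing depth moved the shares of cells. With and without thinning, all 7 shares in mouse 2 LT-HSC lay below those of both ST-HSC libraries. For Ccl6, however, the interval overlapped those of both ST-HSC libraries either way. For Ccl4 it overlapped both without thinning, and that of mouse 1 ST-HSC alone with thinning. The median kept cell held 10367 UMIs in mouse 2 LT-HSC, against 9881 and 7504 in mouse 1 and mouse 2 ST-HSC. Each cell was therefore thinned to 4000 UMIs, which left out 10 cells of mouse 1 LT-HSC, 49 of mouse 2 LT-HSC, 30 of mouse 1 ST-HSC and 29 of mouse 2 ST-HSC. At that depth Wfdc17 was found in 3.25% of cells in mouse 2 LT-HSC, against 23.6% and 26.8% in ST-HSC. Ccl3 was found in 1.63%, against 12.2% and 13.3%, and Ccl4 in 25.2%, against 26.0% and 30.8%. In mouse 1 LT-HSC, Ccl4 was in 41.7% (15.2 to 72.3%) of 12 thinned cells, above both ST-HSC libraries, where the unthinned share of 45.5% lay below them. Free RNA can put a UMI in a cell that does not express a gene. In 16 cells with 100 or more UMIs of neutrophil markers (median depth 7498.5 UMIs), Wfdc17, Wfdc18 and Ccl5 had 0 UMIs and Ccl3 and Ccl4 were in 1 cell each, while Ccl6 was in 6 cells with 62 UMIs and Ccl9 in 4 cells with 17.

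Most other genes of the neighbourhood did not follow the members. Within 1 Mb of them, 27 of 44 other listed genes passed the filter on low counts. Of these, 2 were higher and 2 lower in LT-HSC, while 23 did not pass the test (edgeR, adjusted p under 0.05). Their median log2 difference was 0.09, beside -0.02 over all genes tested. Over all 12656 genes tested, 3.6% were higher and 3.13% lower. Slfn2, of the Schlafen family of growth regulators, lay at 17.3 and 51.6 CPM in LT-HSC, against 7.14 and 9.73 CPM in ST-HSC, a log2 difference of 2.56 (SE 0.21). Unc45b, a chaperone of muscle myosin, lay at 17.3 and 25.4 CPM in LT-HSC, against 12.7 and 13.6 CPM in ST-HSC (0.93, SE 0.22). Wfdc21, another whey acidic protein gene, lay at 0 and 1.74 CPM in LT-HSC, against 7.53 and 28.6 CPM in ST-HSC (-3.35, SE 0.36), and 1700020L24Rik at 0 and 1.21, against 3.52 and 3.83 CPM (-1.61, SE 0.50). Without mouse 2 LT-HSC, only 1 gene of the whole table was higher and 0 were lower, so the calls between populations need that library. Unc45b did not pass without mouse 1 ST-HSC (adjusted p = 0.27, edgeR), nor 1700020L24Rik with all barcodes of mouse 1 LT-HSC (0.291). DESeq2 called 0 of these 4 genes, of which Slfn2 and Wfdc21 had an unadjusted p under 0.05.

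**Figure D2:**
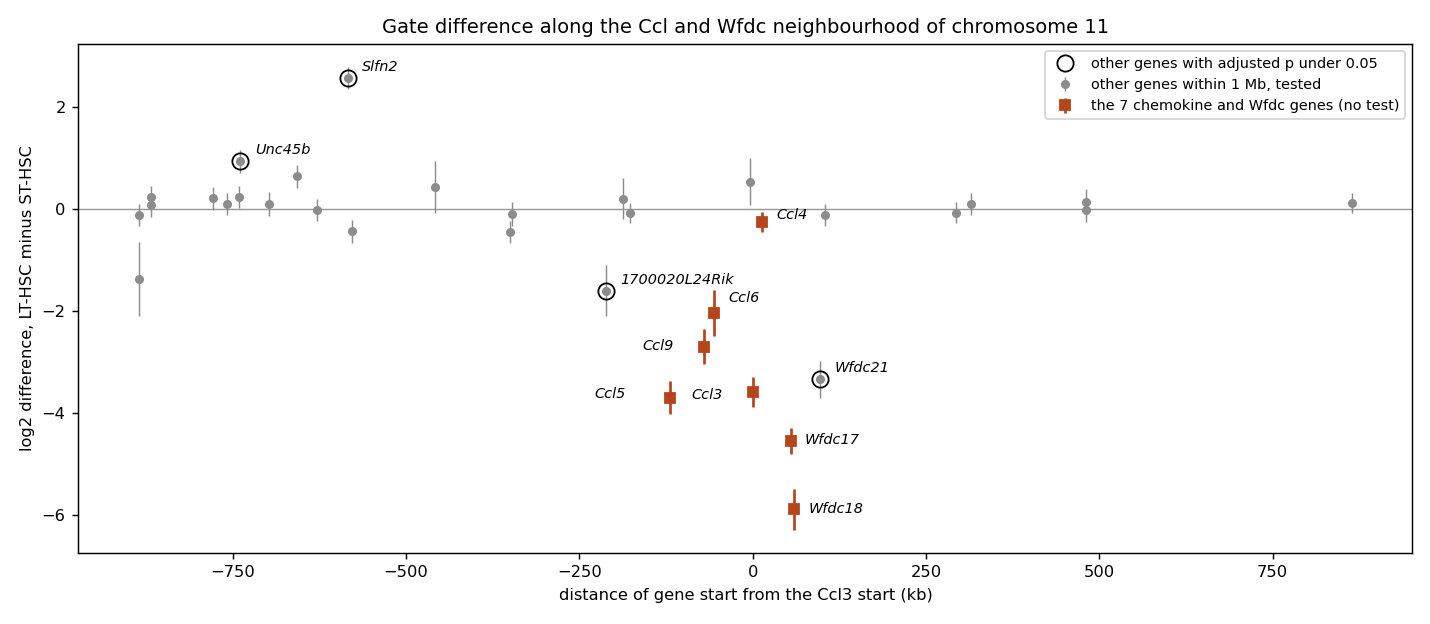
Difference between populations along the chromosome. Each point is a tested gene, placed by the distance of its start from that of Ccl3 (kb), with its log2 difference of LT-HSC minus ST-HSC and bars of 1 SE; squares are the 7 members, and circles mark other genes with an adjusted p under 0.05. The members other than Ccl4 lie between -2.04 and -5.89, while 23 of 27 other genes did not pass the test.

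Among the other chemokines and receptors few were measured well enough to test. Of 30 other chemokines listed, 7 were tested, and Cxcl10 alone passed, with Cxcl16 (1.91, adjusted p = 0.0527) next. Cxcl10 is an interferon-induced chemokine, with 0 and 0.528 CPM in LT-HSC, against 17.9 and 5.45 CPM in ST-HSC (log2 difference -4.50, SE 0.48, adjusted p = 6.23e-17, edgeR). Ccl27a (0.13), Pf4 (-0.09) and Ccl25 (0.08) did not pass the test. Of 24 receptors listed, 6 were tested, with 0 higher and 2 lower in LT-HSC, while Cxcr4, the receptor that holds stem cells in the marrow, had a log2 difference of -0.20 and did not pass. The 2 lower receptors, named after their values were seen, were Ccr9 (-4.30, SE 0.96) and Ccr2 (-1.59, SE 0.49). Of the other whey acidic protein genes 3 of 19 were tested and all 3 changed: Wfdc21 and the protease inhibitor Slpi (1.89 CPM in mouse 2 LT-HSC, against 4.34 and 17.2 CPM in ST-HSC, -2.48, SE 0.40) were lower in LT-HSC, and Wfdc2 (43.4 and 42.0 CPM in LT-HSC, against 17.8 and 27.0 CPM in ST-HSC, 0.92, SE 0.21) was higher. Without the clusters led by neutrophil and macrophage genes, described below, Wfdc21, Slpi and Ccr2 had too few UMIs to be tested, Ccr9, Cxcl10 and Wfdc2 still passed, and Cxcl16 passed too (1.89, adjusted p = 0.0479). Wfdc2 did not pass with the mouse as a block (0.67, adjusted p = 0.0668) or without mouse 1 ST-HSC (0.62, adjusted p = 0.611). Ccr2 did not pass without mouse 2 ST-HSC (-0.66, adjusted p = 0.715), nor Slpi without mouse 1 LT-HSC (adjusted p = 0.105), nor Cxcl10 with all barcodes of mouse 1 LT-HSC (adjusted p = 0.0881). DESeq2 called 0 of these 6 genes, of which Cxcl10 and Wfdc21 had an unadjusted p under 0.05.

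The 7 genes differed in how their molecules were spread over cells. Ccl5 was concentrated: the 10 cells with most Ccl5 held 75.9% of its UMIs in mouse 1 ST-HSC and 93.8% in mouse 2 ST-HSC, and single cells reached 158 and 147 UMIs. Ccl4 was spread, with 8.37% of its UMIs in the top 10 cells of mouse 2 LT-HSC, and 5.36% and 7.03% in those of mouse 1 and mouse 2 ST-HSC. Wfdc17 lay between them, with 15.6% and 21.2% in ST-HSC and a highest cell of 87 and 81 UMIs. No cell of mouse 2 LT-HSC had 10 or more Wfdc17 UMIs, against 87 and 58 cells of mouse 1 and mouse 2 ST-HSC.

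The 16 cells with 10 or more Ccl5 UMIs were 1 cell of mouse 2 LT-HSC, 9 of mouse 1 ST-HSC and 6 of mouse 2 ST-HSC, and together they held 797 Ccl5 UMIs. Of these 16 cells, 13 held 10 or more UMIs of stem cell gate genes, but so did 18 of 39 cells of the neutrophil-led cluster described next. The count therefore does not name the cell type. Their median was 16 UMIs of the gate genes, beside 16 in all cells of mouse 2 LT-HSC, and 22 and 16 in mouse 1 and mouse 2 ST-HSC. Another count gave 2 cells with 10 or more UMIs of T and NK cell markers, and 3 cells were in the neutrophil-led cluster. The neighbouring genes had far fewer molecules than Ccl5 there. These cells held 0 Ccl3 UMIs, 13 Ccl4 UMIs in 8 cells, 6 Ccl6 UMIs in 1 cell and 4 Wfdc17 UMIs in 1 cell. They also held 3 Ccl9 UMIs in 2 cells and 1 Wfdc18 UMI. Ccl4 was not scarce in them, with 8 of 16 cells, beside 45.9% of all cells in mouse 2 LT-HSC, and 48.6% and 46.9% in ST-HSC.

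Ccl6 came mainly from cells outside the intended populations. The clusters led by neutrophil or macrophage genes held 73.7% of its UMIs in mouse 2 LT-HSC, 73.3% in mouse 1 ST-HSC and 88.5% in mouse 2 ST-HSC. All of these were in the neutrophil-led cluster, whose 39 cells held 184 Ccl6 UMIs in 21 cells. Ccl9 had smaller parts there, with 10.4% and 16.5% of its UMIs in both clusters in mouse 1 and mouse 2 ST-HSC. Wfdc17 had 0.922% and 1.88% there, and Ccl4 1.54% and 1.61%. The neutrophil-led cluster was mixed. Of its 39 cells, 15 held 10 or more UMIs of monocyte markers and 4 held 10 or more of basophil and mast cell markers. The 14 cells with 5 or more Ccl6 UMIs, all in this cluster, held 176 of its 184 Ccl6 UMIs. Their medians were 2 UMIs of neutrophil markers and 11.5 of monocyte markers. In mouse 2 ST-HSC, 1 cell with basophil and mast cell markers held 56 Ccl6 UMIs, and in mouse 2 LT-HSC the cluster held 14 in 2 cells.

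Cells were also grouped into clusters on variable genes without the members, so that the members did not define the groups; many clusters held cells of mainly 1 library. The highest Wfdc17 was in an unnamed cluster of 50 cells led by Gria2, Dntt, Ccr9 and Ighm, genes that include the lymphoid polymerase Dntt and the immunoglobulin heavy chain. It held 32 cells of mouse 1 ST-HSC with 1716 CPM of Wfdc17 and 18 cells of mouse 2 ST-HSC with 3631 CPM. In the same cells Wfdc18 lay at 162 and 447 CPM and Ccl3 at 156 and 184 CPM, while Ccl4 stayed at 90.2 and 95.8 CPM. None of its cells came from LT-HSC.

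The lowest levels of Wfdc17 and Ccl3 were in a cluster of dividing cells led by Pclaf, Rrm2 and Top2a. There Wfdc17 lay at 0 CPM in 62 cells of mouse 2 LT-HSC, against 16.5 CPM in 91 cells of mouse 1 ST-HSC and 16.6 CPM in 48 cells of mouse 2 ST-HSC. Ccl3 lay at 0, against 11.6 and 5.54 CPM, and Ccl4 at 20.9, against 22.05 and 45.7 CPM. These were the lowest cluster values of Wfdc17 and Ccl3 in all 3 libraries, and of Ccl4 in mouse 2 LT-HSC and mouse 1 ST-HSC, among clusters with at least 20 cells. Over all such clusters Ccl4 ranged from 20.9 to 200 CPM in mouse 2 LT-HSC and from 22.05 to 233 CPM in mouse 1 ST-HSC. The cells of the cluster led by Pclaf held a median of 1.92 times the median UMIs of their library. CPM and thinned counts are shares of a cell's UMIs, so they fall in such cells at equal molecules per cell. The part of this in the values here, and in the tests on thinned cells below, was not tested. Another cluster of dividing cells, led by Ccnb2, Cenpf and Cenpa, was not low in all members. It held 128 cells of mouse 1 ST-HSC and 41 of mouse 2 ST-HSC. Ccl5 lay there at 134 and 111 CPM, Ccl3 at 22.6 and 102.6 CPM and Wfdc17 at 42.9 and 96.7 CPM. In mouse 1 ST-HSC a single cell held 158 of the 178 Ccl5 UMIs of this cluster, so 134 CPM is not the level of its other cells. The Ccl3 value of 102.6 CPM was the highest in mouse 2 ST-HSC among clusters with at least 20 cells. It lay below the 184 CPM of the 18 cells in the cluster led by Gria2.

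A cluster led by Meg3, Sult1a1 and Apoe held cells of both populations. Its 521 cells of mouse 2 LT-HSC had 9.13 CPM of Wfdc17, 5.48 of Ccl3 and 108 of Ccl4. Its 29 cells of mouse 2 ST-HSC had 43.0 CPM of Wfdc17 (7 UMIs), 61.4 of Ccl3 (10 UMIs) and 172 of Ccl4 (28 UMIs). Its 13 cells of mouse 1 ST-HSC had 26.6 CPM of Wfdc17 (3 UMIs), 0 of Ccl3 and 159 of Ccl4 (18 UMIs). Within this cluster Wfdc17 thus lay higher in both ST-HSC libraries, and Ccl3 higher in that of mouse 2 alone, on few molecules.

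**Figure D3:**
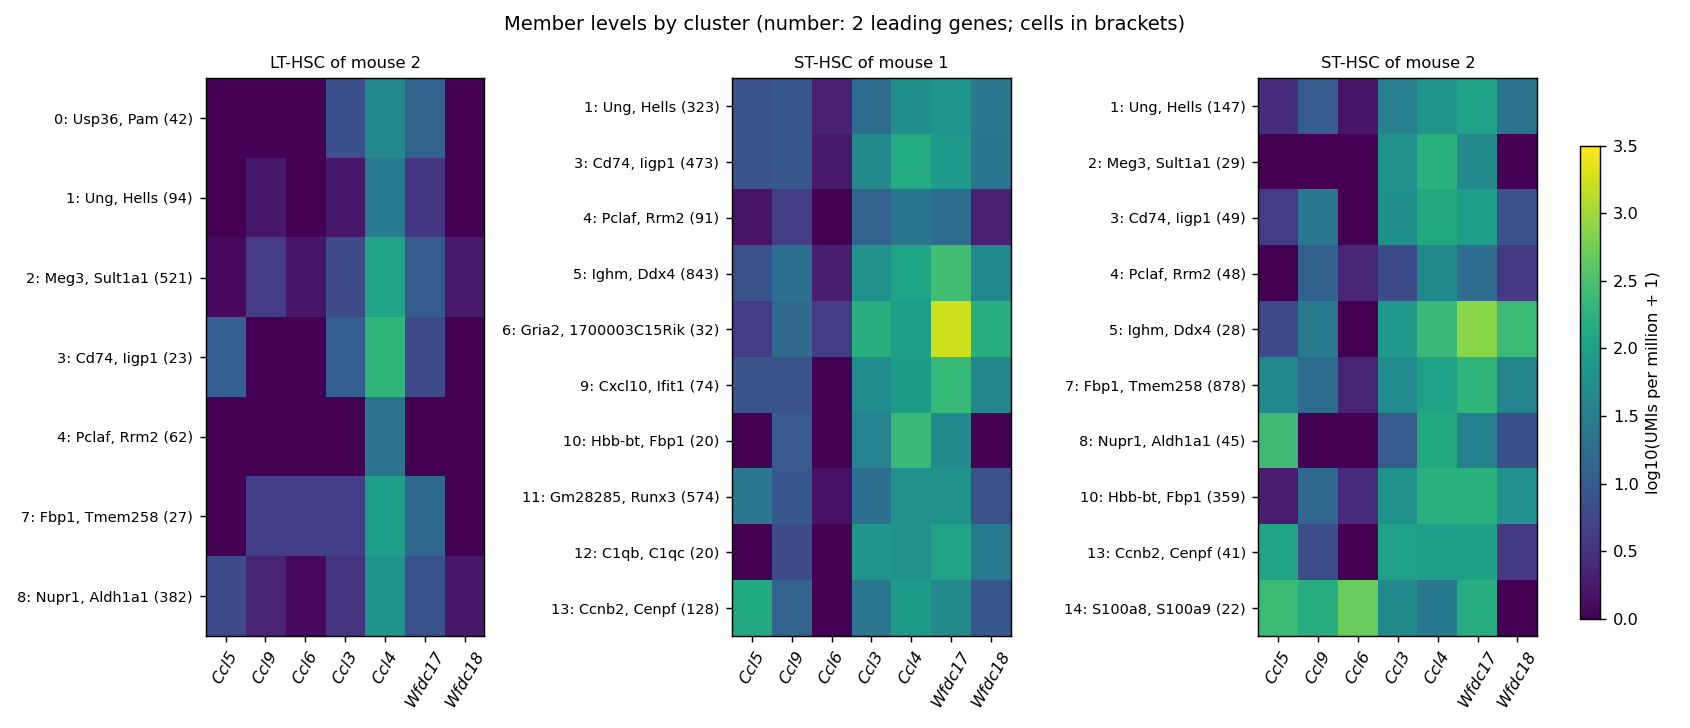
Levels of the 7 genes by cluster and library, as log10 of CPM + 1, for clusters with at least 20 cells in the library; panels run mouse 2 LT-HSC, mouse 1 ST-HSC, mouse 2 ST-HSC. Cluster 6, led by Gria2, Dntt and Ccr9, has 1716 CPM of Wfdc17 in mouse 1 ST-HSC, and cluster 4, led by Pclaf, Rrm2 and Top2a, has 16.5 CPM.

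Whether the neighbours were found in the same cells was asked within each library, in cells thinned to 4000 UMIs. At least 1 of the 7 genes was found in 29.1% of 1168 cells of mouse 2 LT-HSC, against 50.7% of 2603 cells and 57.5% of 1678 cells of mouse 1 and mouse 2 ST-HSC. Cells with 3 or more of them numbered 3 (0.257%), against 135 (5.19%) and 111 (6.62%). For the tests, UMIs were summed over cells with a UMI of one member and over cells without, within each library, and compared with edgeR with the library as a block. Ccl4 and Wfdc17 had enough cells in 3 libraries, and Ccl5, Ccl9, Ccl3 and Wfdc18 in the 2 ST-HSC libraries. Ccl6, with 12 and 15 cells in ST-HSC, could not be fitted. The libraries are the replicates, so the p-values rest on 3 or 2 libraries from 2 mice.

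Wfdc17 and Wfdc18 were the pair with the largest fitted difference. Wfdc18 was found in 18.6% (15.6 to 21.9%) of 614 cells with Wfdc17 and in 3.52% (2.75 to 4.43%) of cells without it in mouse 1 ST-HSC. In mouse 2 ST-HSC the shares were 21.8% (18.0 to 25.9%) of 450 cells with Wfdc17 and 4.40% (3.32 to 5.70%) of cells without it. The intervals do not overlap in either library. The numbers of cells with both were 114 and 98, where the product of both shares would give 43.4 and 40.8. In mouse 2 LT-HSC, 0 of 38 cells with Wfdc17 held Wfdc18 (interval up to 9.25%), and 1 cell of that library without Wfdc17 did.

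In the fits, Wfdc18 was higher in cells with Wfdc17 by 2.91 on the log2 scale (SE 0.13, adjusted p = 4.02e-112, edgeR). Wfdc17 was higher in cells with Wfdc18 by 2.79 (SE 0.068, adjusted p = 5.11e-42). When each cell was counted once per gene, whatever its number of UMIs, both still passed, at 2.36 and 1.55. As background, 1.54% of 11243 genes were higher and 1.63% lower in cells with Wfdc17, and 1.09% of 10981 higher and 0.738% lower in cells with Wfdc18.

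The transcripts of this pair resemble each other at the 3′ end, which this method reads. Over the last 300 bases, 243 of 299 aligned columns were identical (81.3%), and the longest identical run in the whole transcripts was 30 bases. A molecule of one could therefore be counted for the other, and its part in the result was not tested. The number of Wfdc18 UMIs per 100 Wfdc17 UMIs varied between groups of cells. It was 7.2 in mouse 2 LT-HSC, against 16.8 in mouse 1 ST-HSC and 19.7 in mouse 2 ST-HSC. Among clusters of mouse 1 ST-HSC it ran from 9.5 in the cluster led by Gria2 and Dntt, where Wfdc17 was highest, to 33.8 in a cluster led by Ung and Mcm genes of S phase. By contrast, the last 300 bases of Ccl3 and Ccl4 aligned over 25 columns with 20 identical, and their longest identical run was 9 bases.

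Ccl3 and Wfdc17 were found in the same cells of both ST-HSC libraries. Ccl3 was in 20.03% of cells with Wfdc17 and in 9.75% of cells without it in mouse 1 ST-HSC, and in 17.6% and 11.8% in mouse 2 ST-HSC. Ccl3 was higher in cells with Wfdc17 by 0.86 (SE 0.12, adjusted p = 1.02e-10, edgeR), and Wfdc17 in cells with Ccl3 by 1.18 (SE 0.065, adjusted p = 3.46e-06). Both passed with each cell counted once. In the fit on Ccl3 cells, 0.199% of 11040 genes were higher and 0.163% lower.

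Ccl3 and its nearest neighbour Ccl4 shared cells too, with a smaller difference. Ccl3 was in 3.40% of cells with Ccl4 and in 1.03% of cells without it in mouse 2 LT-HSC. The shares were 16.7% and 10.6% in mouse 1 ST-HSC, and 15.5% and 12.4% in mouse 2 ST-HSC, where the intervals overlap. Ccl3 was higher in cells with Ccl4 by 0.79 (SE 0.11, adjusted p = 1.81e-06, edgeR; 0.55 and 0.0402 with each cell counted once). Ccl4 was higher in cells with Ccl3 by 0.61 (SE 0.095, adjusted p = 0.0182), which did not pass with each cell counted once (0.41, adjusted p = 0.171). In the fit on Ccl4 cells, 1.36% of 11158 genes were higher and 2.5% lower.

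Ccl4 was also linked with the whey acidic protein genes. Wfdc17 was in 3.74% of cells with Ccl4 and 3.09% of cells without it in mouse 2 LT-HSC, in 29.99% and 21.3% in mouse 1 ST-HSC, and in 31.1% and 24.9% in mouse 2 ST-HSC. Wfdc17 was higher in cells with Ccl4 by 0.82 (SE 0.058, adjusted p = 1.33e-15, edgeR), and Ccl4 in cells with Wfdc17 by 0.55 (SE 0.078, adjusted p = 7.16e-10). Wfdc18 was in 10.2% of cells with Ccl4 and 5.97% of cells without it in mouse 1 ST-HSC, and in 12.96% and 7.32% in mouse 2 ST-HSC. It was higher in cells with Ccl4 by 1.18 (SE 0.13, adjusted p = 6.01e-09), and all of these passed with each cell counted once.

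Ccl9 shared cells with Wfdc17. Ccl9 was in 8.96% of cells with Wfdc17 and 3.32% of cells without it in mouse 1 ST-HSC, and in 7.56% and 4.40% in mouse 2 ST-HSC. It was higher in cells with Wfdc17 by 1.21 (SE 0.20, adjusted p = 3.25e-07, edgeR), and Wfdc17 in cells with Ccl9 by 1.22 (SE 0.11, adjusted p = 2.37e-11), and both passed with each cell counted once. Without mouse 1 ST-HSC, the first did not pass (adjusted p = 0.367). Ccl3 was higher in cells with Ccl9 by 1.45 (SE 0.19, adjusted p = 3.57e-07), which did not pass with each cell counted once. Ccl6 was higher by 2.61 (SE 0.52, adjusted p = 0.00188), on 4 cells and 2 cells that held both, and this did not pass with each cell counted once either. In the fit on Ccl9 cells, 0.577% of 10924 genes were higher and 0.11% lower.

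For Ccl5 the result depended on which gene chose the cells and on how cells were counted. In cells with Ccl5 none of the 6 other members passed the test in either direction (edgeR, 10909 genes tested, 451 at an unadjusted p under 0.05), where 0.0917% of genes were higher and 0.0458% lower. That fit rested on 49 and 24 cells with Ccl5 in mouse 1 and mouse 2 ST-HSC, so it could miss a link. In the other fits Ccl5 did pass (edgeR). Its fitted level was lower in cells with Ccl3 (-2.67, adjusted p = 0.0182), Wfdc17 (-2.18, 3.24e-19) and Wfdc18 (-1.79, 0.00241). It was higher in cells with Ccl4 (1.02, 5.23e-07). None of these passed with each cell counted once, where the value in cells with Wfdc17 was 0.39 (adjusted p = 0.886) and that in cells with Wfdc18 was 0.76. Ccl5 was in 1.95% of cells with Wfdc17 and 1.86% of cells without it in mouse 1 ST-HSC, and in 2.22% and 1.14% in mouse 2 ST-HSC.

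Of the 36 ordered pairs that could be fitted, 17 were higher, 4 were lower and 15 did not pass. Of the 17, 11 passed with each cell counted once; of the 4 that were lower, 3 could be tested so and none of these passed. Each of the 16 that could be fitted without the neutrophil-led and macrophage-led clusters stayed higher there. DESeq2 gave an adjusted p for 11 of the 17 and called 7 of them. The 2 directions of a pair share the same cells and are not separate evidence.

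**Figure D4:**
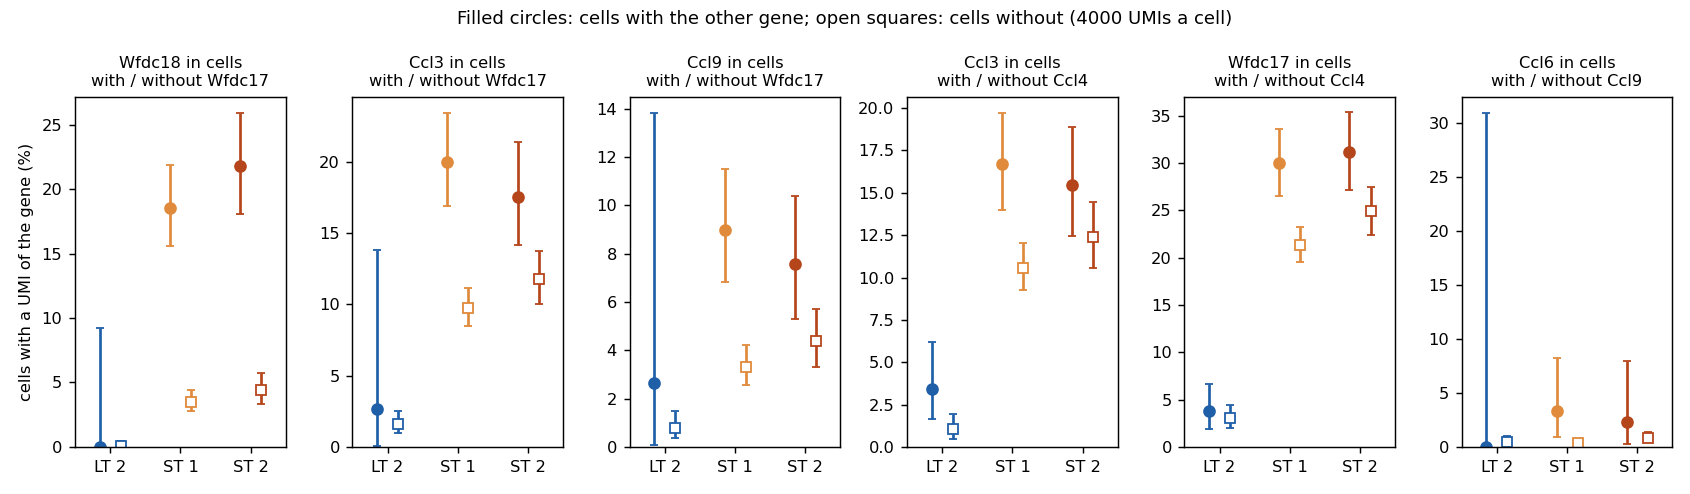
Share of cells with the second gene of 6 pairs (percent, with 95% exact binomial intervals) among cells with the first gene (filled) and cells without it (open), thinned to 4000 UMIs, in mouse 2 LT-HSC, mouse 1 ST-HSC and mouse 2 ST-HSC. Wfdc18 is at 18.6% with and 3.52% without Wfdc17 in mouse 1 ST-HSC, and at 21.8% with and 4.40% without it in mouse 2 ST-HSC.

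**Figure D5:**
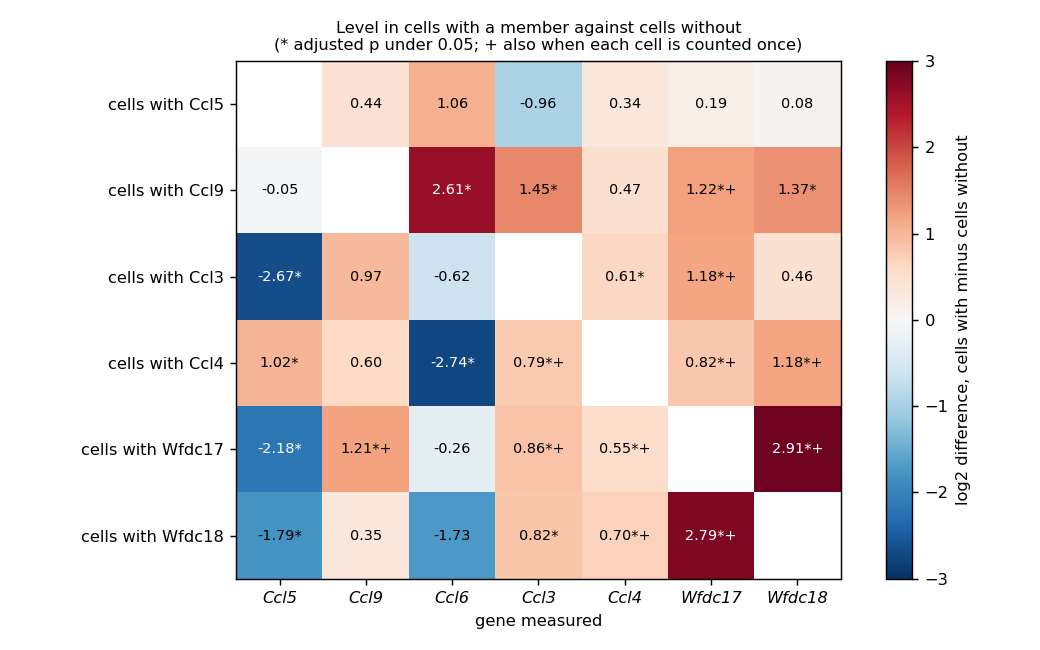
Log2 difference of each member (columns) in cells with a UMI of another member minus cells without (rows), from the 6 fits. An asterisk marks an adjusted p under 0.05, and a plus sign a pair that also passed with each cell counted once. The highest values are those of Wfdc18 in cells with Wfdc17 (2.91) and of Wfdc17 in cells with Wfdc18 (2.79); the cells with Ccl5 have no mark.

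Cells with Wfdc17 carried more transcripts of multipotent progenitors and of early lymphoid cells, and fewer of dividing cells. Of 15 multipotent progenitor genes tested, 10 were higher and 0 lower, and 7 were higher with each cell counted once. Of 6 lymphoid genes tested, 4 were higher either way. Their median log2 differences were 0.47 and 1.28, beside 0.00 over all genes. Of 18 genes of G2 and M phase, 11 were lower (4 with each cell counted once, median -1.13), and of 20 genes of S phase, 10 were lower (5 with each cell counted once, median -0.48). Without mouse 1 ST-HSC these 4 counts were 3, 2, 7 and 2, without mouse 2 ST-HSC they were 6, 3, 3 and 4, and without mouse 2 LT-HSC they were 8, 4, 7 and 6.

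Flt3, the receptor that marks multipotent progenitors, lay at 32.9 CPM in cells with Wfdc17 and 15.9 CPM in cells without it in mouse 2 LT-HSC. It lay at 200.2 and 118 CPM in mouse 1 ST-HSC, and at 241 and 132 CPM in mouse 2 ST-HSC (log2 difference 0.83, SE 0.066, adjusted p = 4.37e-33, edgeR). All 3 libraries showed the same direction. Ighm lay at 76.1 and 20.7 CPM in mouse 1 ST-HSC, and at 68.3 and 19.1 CPM in mouse 2 ST-HSC (1.88, SE 0.13), but at 0 and 0.221 CPM in mouse 2 LT-HSC. Dntt lay at 26.1 and 5.15 CPM in mouse 1 ST-HSC, and at 17.8 and 6.31 CPM in mouse 2 ST-HSC (2.03, SE 0.24), with no UMI in mouse 2 LT-HSC. Lymphoid transcripts were thus seen with Wfdc17 in ST-HSC, and LT-HSC held too few of them to compare.

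Other genes that rose with Wfdc17 were the progenitor genes Cd52 (0.66), Emb (0.54) and Satb1 (0.89), the RNA helicase Ddx4 (1.22) and Mn1 (1.11), and each passed with each cell counted once. Of 17 immediate early genes tested, which respond first to stimulation, 4 were higher and 0 lower. With each cell counted once Btg2 (0.77) passed, and Fos (0.57) did not (adjusted p = 0.163). Of 17 NF-kB response genes, 1 was higher and 0 lower, which was Nfkbiz (0.51), named after its value was seen. Of 24 HSC-enriched genes 3 were higher and 3 lower, and of 13 myeloid genes 4 were higher and 4 lower. Esam, an adhesion protein of stem cells, fell by 0.68 in the fit (SE 0.15, adjusted p = 2.98e-04), with 105 and 78.3 CPM in mouse 2 LT-HSC but 21.6 and 36.6 CPM in mouse 1 ST-HSC, and 23.3 and 45.2 CPM in mouse 2 ST-HSC, so that the LT-HSC library went the other way. Mki67, which marks dividing cells, lay at 0 and 22.1 CPM, 10.2 and 20.1 CPM, and 3.33 and 17.9 CPM in the 3 libraries, with cells with Wfdc17 given before cells without it (-1.44, SE 0.25).

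Cells with Wfdc18 in ST-HSC resembled those with Wfdc17. Of 15 multipotent progenitor genes tested, 8 were higher and 0 lower, of 6 lymphoid genes 4 were higher, and of 17 genes of G2 and M phase 9 were lower. With each cell counted once, these counts were 1, 1 and 0. Flt3 lay at 253 and 128 CPM in cells with and without Wfdc18 in mouse 1 ST-HSC, and at 281 and 149 CPM in mouse 2 ST-HSC (0.98, SE 0.092). Ighm (1.60), Ddx4 (1.45) and the syndecan gene Sdc1 (1.45) were higher and passed both ways, while Dntt (2.27) and Ccr9 (3.48), the receptor of Ccl25, did not pass with each cell counted once.

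Cells with Ccl4 differed from the rest in HSC-enriched genes, and in cell cycle genes as cells with Wfdc17 did. Of 24 HSC-enriched genes tested, 8 were higher and 0 lower, with a median of 0.16 beside 0.01 over all genes, and 1 passed with each cell counted once. Without mouse 2 ST-HSC, 5 were higher. Hlf, a transcription factor of stem cells, lay at 583 and 474 CPM in cells with and without Ccl4 in mouse 2 LT-HSC, at 867 and 742 CPM in mouse 1 ST-HSC, and at 816 and 659 CPM in mouse 2 ST-HSC (0.27, SE 0.029). Ly6a, which encodes Sca1, lay at 365 and 233 CPM, 321 and 265 CPM, and 371 and 313 CPM in the same libraries (0.35, SE 0.048). Both were higher in all 3 libraries by small steps, and neither passed with each cell counted once, while Mllt3 did (0.40, and 0.27 with each cell counted once, adjusted p = 0.0433). Hlf and Ly6a were not particular to Ccl4, as they were also higher in cells with Wfdc17 (0.22 and 0.24) and Wfdc18 (0.32 and 0.40). Pdzk1ip1 was higher in cells with Ccl4 (0.27) and lower in cells with Wfdc17 (-0.35).

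Of 20 genes of S phase, 13 were lower in cells with Ccl4 (6 with each cell counted once), and of 18 genes of G2 and M phase, 7 (3 with each cell counted once; 4 without mouse 1 ST-HSC). Rrm2, a subunit of ribonucleotide reductase, lay at 2.55 and 18.6 CPM in mouse 2 LT-HSC, at 5.17 and 12.7 CPM in mouse 1 ST-HSC, and at 1.93 and 12.1 CPM in mouse 2 ST-HSC (-1.95, SE 0.29). Mcm5, of the replicative helicase, lay at 27.2 and 40.0, 25.5 and 46.2, and 17.4 and 34.7 CPM in these libraries (-0.83, SE 0.13). Of 15 multipotent progenitor genes 1 was higher and 3 were lower, and of the lymphoid, immediate early and NF-kB lists no gene passed in either direction (edgeR, 1622 of all 11158 genes at an unadjusted p under 0.05).

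Cells with Ccl3 differed in fewer genes. Ighm lay at 55.2 and 30.8 CPM in cells with and without Ccl3 in mouse 1 ST-HSC, and at 54.7 and 28.9 CPM in mouse 2 ST-HSC (0.88, SE 0.14, adjusted p = 0.0182, edgeR). Flt3 (0.54), Satb1 (0.81) and Hlf (0.30) were higher too. None of these 4 passed with each cell counted once, and no gene of the G2 and M phase, S phase, immediate early or NF-kB lists passed (962 of all 11040 genes at an unadjusted p under 0.05).

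Cells with Ccl9 held more myeloid transcripts, but not once the clusters of other cell types were left out. Of 15 myeloid genes tested 5 were higher, and 3 of 5 monocyte and 3 of 4 basophil and mast cell markers were. Of 10 neutrophil markers tested, 2 (Elane and Mpo) were higher and 6, Camp and Ngp among them, were lower. Mpo, the neutrophil granule enzyme, lay at 78.5 and 11.1 CPM in cells with and without Ccl9 in mouse 1 ST-HSC, and at 59.7 and 9.75 CPM in mouse 2 ST-HSC (2.72, SE 0.28). Without the neutrophil-led and macrophage-led clusters its difference was 0.57 (adjusted p = 0.977), and no myeloid gene passed. Flt3 was higher with those clusters (0.57, SE 0.13) and without them (0.66), but did not pass with each cell counted once (adjusted p = 0.976).

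Cells with Ccl5 held T cell transcripts in a few cells. Of 4 T and NK cell markers tested 2 were higher, and of 6 lymphoid genes 1 was, but without the clusters of other cell types 0 of 2 and 0 of 5 passed in either direction. Il7r lay at 15.3 and 0.196 CPM in cells with and without Ccl5 in mouse 1 ST-HSC, and at 115 and 0 CPM in mouse 2 ST-HSC (8.36, SE 1.7). Ifit1, an interferon-induced gene, lay at 128 and 26.7 CPM, and at 115 and 22.8 CPM in the same libraries (2.21, SE 0.34; 2.12 without the clusters of other types), and did not pass with each cell counted once. In every fit some neutrophil markers were lower in cells with the member. They were 10 of 11 tested for Wfdc17 (1 higher) and for Ccl4, 9 of 10 for Wfdc18 and 8 of 10 for Ccl3. For Ccl9 they were 6 of 10 (2 higher) and for Ccl5 5 of 10. These markers lead the cluster of 39 cells described above, and of the 4 that could be tested with each cell counted once none passed.

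Correlations over cells were low for most members and are given as a description. They use log counts of thinned cells, averaged over mouse 2 LT-HSC and both ST-HSC libraries, among 9471 genes. The members themselves are left out of these rankings. Flt3 came first for Wfdc17 (r = 0.166), Wfdc18 (0.101) and Ccl3 (0.0847). Malat1, Ifitm1 and Hlf came first for Ccl4 (0.174, 0.124 and 0.121). Tyrobp, a signalling adaptor of myeloid cells, came first for Ccl6 (0.473) and Ccl9 (0.0894), and the interferon-induced Rsad2 for Ccl5 (0.114). The cells of a library share its depth and free RNA.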

How the data were processed

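UMI counts per gene and barcode were deposited by the authors as raw values for 4 libraries made with the 10x Chromium 3′ v3 kit, per the labels' protocols. The submitters' processing notes name Cell Ranger 3.1.0 and mm10, and the software version is 3.0.2, per the file headers; the rule by which barcodes were picked for deposit is not given in the sources. Groups and mouse numbers came from the labels. The members, lists and tests were chosen with earlier results of these data known.

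Barcodes were kept with 1000 or more genes, 2000 or more UMIs and at most 10% mitochondrial UMIs, which left 115305 to 27870823 UMIs per library; no doublet caller was run. Counts were summed per library, since cells are not replicates, and tested with edgeR 4.0.16 (quasi-likelihood, TMM, filterByExpr defaults, Benjamini-Hochberg adjustment, threshold 0.05); the population test used all 4 libraries without a block. CPM are per 1e6 UMIs of the summed cells. Standard errors (SE) are the size of the log2 difference over the square root of F. Cells with and without a member were summed within libraries with 20 or more of each, after thinning to 4000 UMIs, with the library as a block. The tests were checked on simulated data. Clusters came from scanpy 1.11.5 and leidenalg 0.10.2 (2000 variable genes without the members, other Ccl and mitochondrial genes, 30 components, 15 neighbours, resolution 1.0). A cluster was named when at least 5 of its top 10 genes were markers of 1 type and 3 markers were found in 25% of its cells, limits set after looking at the clusters. Alignments used Biopython 1.88. R 4.3.3 and Python 3.11.15 were used.

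Named genes were the members; in each fit on cells with a member, up to 6 genes in each direction with the largest difference (adjusted p under 0.05, mean at least 20 CPM, 1 direction in every library); up to 4 of each list by lowest p (mean at least 5 CPM); genes past the threshold within 1 Mb; and the 5 genes with the highest correlation. Genes outside the rule are said to be so. Libraries with the same mouse number came from the same animal, per the labels, so the numbers pair the populations; the fit with mouse as a block is an alternative. Other alternatives were DESeq2 1.42.0, no filter on low counts, other depths of thinning, no library block, leaving out each library, all barcodes of mouse 1 LT-HSC, leaving out the clusters of other cell types and, added after the data had been seen, counting each cell once per gene.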

Additional observations from a re-analysis of the deposited data

Results flagged for a closer look

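Among kept cells, Ccl4 went in opposite directions in the 2 mice. In mouse 1, LT-HSC lay 59.1 CPM above ST-HSC, and in mouse 2 LT-HSC lay 34.4 CPM below ST-HSC (-34.4 CPM for LT-HSC minus ST-HSC). The difference between the mice was not tested, and the LT-HSC value of mouse 1 came from 17 UMIs in 22 cells. Over all its barcodes, mouse 1 LT-HSC held 84.3 CPM of Ccl4, against 88.3 CPM in mouse 1 ST-HSC, so both mice then went the same way.

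Members were also counted in the barcodes of mouse 1 LT-HSC that did not pass as cells, which no comparison in the report tests. These barcodes held 1128 UMIs of Ccl4, 134 of Wfdc17, 46 of Ccl3, 36 of Ccl5, 32 of Wfdc18, 21 of Ccl9 and 4 of Ccl6.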

How the results depend on the processing

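Every count between populations rests on mouse 2 LT-HSC, whose library is 1 of only 2, and the counts on cells with a member rest on 2 or 3 libraries from 2 mice; depth limits mouse 1 LT-HSC most, at 22 cells. The directions of the 7 members between populations held under each alternative that could be fitted, except that Ccl4 (-0.27) ran from -0.39 to 0.46 when 1 library was left out, the last without mouse 2 LT-HSC. Their sizes moved more, with Ccl5 (-3.70) at -4.18 to -1.68 and Ccl6 (-2.04) at -2.76 to -0.91 when 1 library was left out, leaving aside fits in which LT-HSC had no UMI of the gene. Leaving out 1 library at a time gave 1 to 602 genes higher in LT-HSC (455 with all) and 0 to 365 higher in ST-HSC (396). It gave 0 to 3 and 0 to 5 among chemokine, receptor and whey acidic protein genes, and 0 to 2 and 0 to 3 within 1 Mb. In cells with Ccl4 it gave 88 to 107 genes higher and 165 to 208 lower (152 and 279 with all), and in cells with Wfdc17 it gave 27 to 125 higher and 34 to 112 lower (173 and 183 with all). Where no value below shows it, the cause of a shift was not tested.

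With DESeq2 there were 29 genes higher and 24 lower in LT-HSC, and 0 among the chemokine, receptor and whey acidic protein genes and 0 within 1 Mb in either direction. Member pairs were 2 higher and 1 lower in fits on 3 libraries (edgeR 8 and 2) and 5 higher and 0 lower in fits on 2 (edgeR 9 and 2). Genes higher and lower in cells with a member were 23 and 0 for Ccl9 (edgeR 63 and 12), 5 and 4 for Ccl3 (22 and 18), 28 and 45 for Ccl4, 6 and 4 for Wfdc17, 20 and 3 for Wfdc18 (120 and 81), with 2 lower for Ccl5 (5). Wfdc18 in cells with Ccl5 turned from 0.08 to -0.018.

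With each cell counted once, pairs lower were 0 in both sets of fits and pairs higher on 2 libraries were 4. Genes higher and lower were 0 and 0 for Ccl5, 1 and 0 for Ccl9, 1 and 0 for Ccl3, 19 and 41 for Ccl4, 69 and 50 for Wfdc17, and 12 and 4 for Wfdc18. Ccl5 turned to 0.80 in cells with Ccl9 (from -0.05), 0.39 in cells with Wfdc17 and 0.76 in cells with Wfdc18.

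With no replicate block, which leaves the library out of the model, pairs were 0 and 0 on 3 libraries and 2 and 0 on 2. Genes higher and lower were 11 and 0 for Ccl9, 0 and 0 for Ccl3, Ccl4 and Wfdc17, and 3 and 0 for Wfdc18, with 1 lower for Ccl5, and Wfdc18 in cells with Ccl5 was -0.035. With the mouse as a replicate block, 0 chemokine, receptor or whey acidic protein genes were higher in LT-HSC (1 without), and the block changed no other call by over 1.5 times.

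Without thinning, pairs were 1 lower on 3 libraries and 14 higher on 2. Genes higher and lower were 16 and 27 for Ccl5, 160 and 20 for Ccl9, 213 and 336 for Ccl3, 353 and 767 for Ccl4, 335 and 358 for Wfdc17, and 386 and 494 for Wfdc18. Wfdc17 and Wfdc18 in cells with Ccl5 turned to -0.10 and -0.19, and Ccl6 in cells with Ccl3 to 1.22. Thinned to 2000 UMIs, pairs lower were 1 on 3 libraries and 1 on 2, and genes higher and lower were 27 and 24 for Ccl9, 31 and 65 for Ccl4, 89 and 76 for Wfdc17, and 19 and 10 for Wfdc18, with 7 higher for Ccl3. Ccl6 turned to 2.68 in cells with Ccl3 and 1.24 in cells with Ccl4, and Ccl5 in cells with Ccl4 to -0.41.

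Without the clusters of other cell types, chemokine, receptor and whey acidic protein genes were 2 higher and 2 lower in LT-HSC, 0 genes within 1 Mb were lower, 1 pair on 3 libraries was lower, and genes higher and lower were 2 and 0 for Ccl5, 14 and 6 for Ccl9, and 36 and 51 for Ccl3. With all barcodes of mouse 1 LT-HSC, the first list had 2 higher and 3 lower, and 1 gene within 1 Mb was lower. With no filter on low counts, 4 genes of that list were higher, and 33 genes were lower for Ccl9 and 129 for Ccl3.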
